A study of Arabidopsis thaliana with 31 samples.

Results

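The genes described here were 10 regulators of root vascular development in *Arabidopsis*, taken by locus from a list of genes with published vascular roles, out of 32678 loci in the expression table. They were the basic helix-loop-helix (bHLH) genes *TMO5* (AT3G25710), *T5L1* (AT1G68810) and *LHW* (AT2G27230), the Dof genes *TMO6* (AT5G60200), *PEAR1* (AT2G37590), *PEAR2* (AT5G02460) and *HCA2* (AT5G62940), the thermospermine synthase gene *ACL5* (AT5G19530), and the bHLH genes *SAC51* (AT5G64340) and *SACL3* (AT1G29950). The table held 31 RNA-seq libraries of Col-0 root cells, each collected by mouth pipette after digestion of the cell walls. QC cells came from *WOX5:GFP* plants at 6 DAS, with 20 libraries of single cells and 4 aliquots of a pool of 4 QC cells that was lysed and split. Stele cells came from *WOL:CRE-GR 35S:lox-CFP* plants at 7 DAS, with 3 cells isolated at 0 h and 4 cells at 16 h after the root tip was cut off. In the stele line, dexamethasone frees the recombinase to switch on *CFP* for good in cells with *WOL* promoter activity and in their descendants, so that the mark covers any stele cell type and stays when *WOL* is lost. All stele plants, at 0 h and at 16 h, received dexamethasone and lost the root tip. The cells at 16 h were taken while the stump re-forms a root tip, and the comparison asks how vascular genes stand in stele cells during that time.

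*TMO5* and *LHW* proteins pair to form a transcription factor that drives the oriented divisions by which the vascular cylinder gains cell files. The pair turns on cytokinin-making *LOG* genes in xylem precursors, and cytokinin turns on PEAR Dof factors, which are made around the early phloem and promote divisions in neighboring procambial cells. *ACL5* makes thermospermine, which raises the translation of *SAC51* family mRNAs, and proteins of this family bind *LHW* in competition with *TMO5*.

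Library totals were 12071810 to 115114702 reads in QC cells, 83718007 to 127775758 in aliquots, 11637897 to 28121886 in 0 h stele cells and 23387890 to 35185668 in 16 h stele cells. Between 4646 and 11035 loci were above 0 in a QC cell, 9770 to 11096 in an aliquot and 11316 to 13452 in a stele cell. Values are in fragments per 1000000 (FPM), that is, the reads of the gene for each 1000000 reads of its library. They are not divided by gene length and are compared only between libraries. In 21 libraries the loci above 0 all lay within those of 1 other library of the same kind, which heads a set. QC cell 1 heads a set of 7 libraries (QC cells 1 and 8 to 13), QC cell 2 of 6 (2 to 7) and QC cell 14 of 3 (14, 19 and 20), while QC cells 15 to 18 are in no set. The first aliquot, the first 0 h cell and the first 16 h cell each head the set of their own group. A gene at 0 in the head of a set is therefore at 0 in every library of it, and such zeros are not separate observations. QC cells 15 and 16, and also 17 and 18, agreed so closely that each pair may be 1 library sequenced at 2 depths. No source names the plant of a cell, so cells were not treated as replicates and no difference was tested.

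Most QC and stele markers were above 0 in the cells of their label, some of them at low levels. Of 5 QC markers, *WOX5*, *PLT1*, *PLT2* and *BBM* were above 0 in all 20 QC cells, and *AGL42* was above 0 in 1. The lowest values of the first 4 in QC cells were 124, 0.674, 0.142 and 2.13 FPM. *SCR*, which the paper names as a gene of endodermis and QC, was also above 0 in all 20 QC cells. The other endodermis markers, *MYB36* and *CASP1*, were at 0 in all libraries. Of 5 stele markers, *WOL*, *SHR*, *ATHB8*, *PHB* and *REV* were all above 0 in the 3 stele cells at 0 h, with a sum of 504 to 983 FPM against 0 to 55.1 FPM in QC cells. At 16 h the same sum was 16.6 to 282 FPM. QC markers were also listed in 0 h cell 1, with *WOX5* at 5.24 FPM and *BBM* at 10.9 FPM, and in 16 h cell 1, at 1.51 and 4.19 FPM. *GL2*, an epidermis marker, was at 0 at 0 h and at 4.65, 0.256, 0.037 and 0.043 FPM in 16 h cells 1 to 4. The values in 16 h cells 3 and 4 were 1 read each, and *WER*, the other epidermis marker, was at 0 in all libraries. The part of these values in the results on 0 h cell 1 and 16 h cell 1 was not tested. *CFP* itself, on the deposited log2 scale, was 14.07 to 16.16 in the 7 stele cells. The row for *GFP*, the reporter of the QC line, was nearly as high there, at 13.91 to 16.00, and was 0 to 4.75 in QC cells. The *CFP* row is therefore no separate reading of its reporter.

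The vascular regulators were mostly listed in stele cells and mostly at 0 in QC cells. All 3 stele cells at 0 h had 7 of the 10 genes above 0, and these were the same 7 genes, *TMO5*, *T5L1*, *LHW*, *TMO6*, *ACL5*, *SAC51* and *SACL3*. Of all 32678 loci, 36.2 to 40.0% were above 0 in these cells. The 16 h cells had 5 to 8 of the genes above 0, with a median of 6, beside 34.6 to 41.2% of loci. The 20 QC cells had 0 to 2, with a median of 1, beside 14.2 to 33.8% of loci, and 8 of them had none. Over all QC cells 19 of 200 values were above 0, and 6 of these reached 10 FPM. In the 4 aliquots the number was 1 to 2, all from *LHW* and *SAC51*, beside 29.9 to 34.0% of loci.

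**Figure D1:**
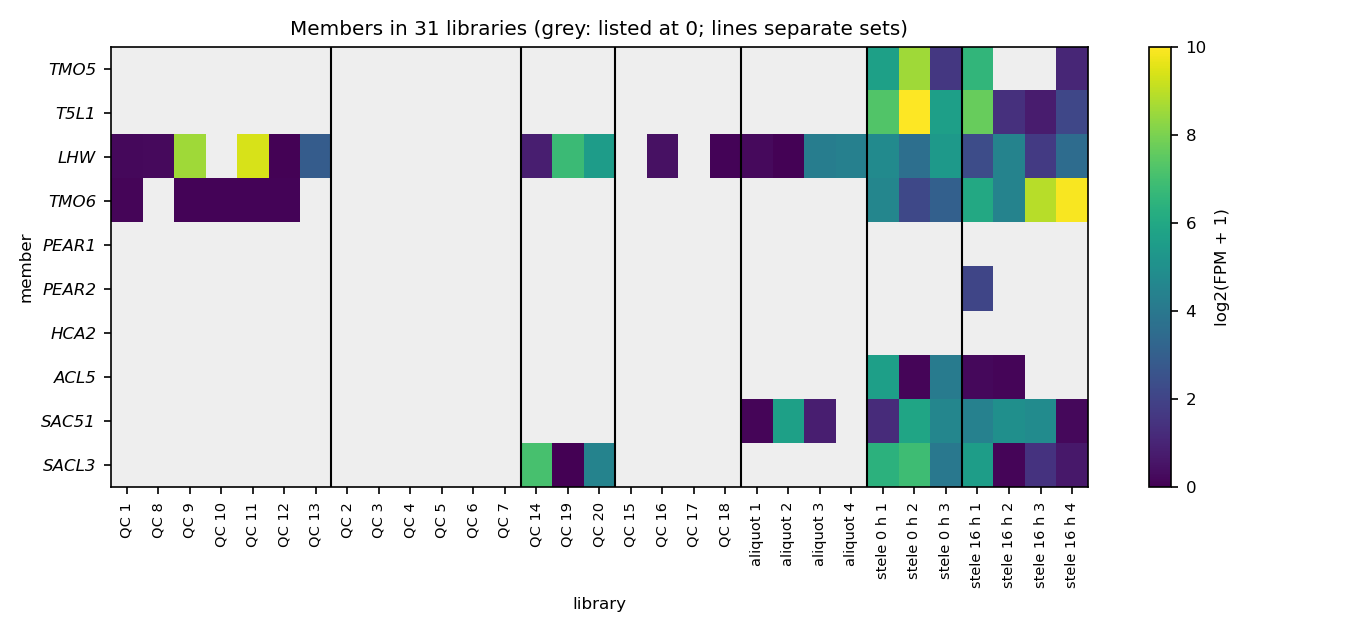
Heatmap of the 10 vascular regulators (rows) in 31 libraries (columns), colored by log2(FPM + 1), with grey where a gene is listed at 0 and black lines between sets of libraries. Color is concentrated in the 7 stele columns and in the *LHW* row, while *PEAR1* and *HCA2* are grey throughout.

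*TMO5* is the bHLH partner that gives the heterodimer its restriction to xylem precursors. It stood at 51.0, 382 and 2.07 FPM in 0 h cells 1, 2 and 3, and at 95.0, 0, 0 and 1.11 FPM in 16 h cells 1, 2, 3 and 4. It was listed at 0 in all 20 QC cells and all 4 aliquots. The stele groups overlapped, because 16 h cell 1 lay between the 0 h cells while the other 16 h cells lay below all of them. The medians of log2(FPM + 1) differed by -5.16 between 16 h and 0 h.

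*T5L1* is the closest relative of *TMO5* and acts redundantly with it. Its values were 155, 1026 and 48.6 FPM in 0 h cells 1 to 3 and 202, 1.59, 0.696 and 3.42 FPM in 16 h cells 1 to 4, and it too was listed at 0 in all QC cells and aliquots. *T5L1* was the only *TMO5*-class gene of the 10 above 0 in all 7 stele cells. The 7 cells fell in the same order for *T5L1* as for *TMO5*, with 0 h cell 2 highest, then 16 h cell 1, then 0 h cells 1 and 3, then the other 16 h cells. The median difference of *T5L1* was -5.53 on the log2(FPM + 1) scale, and again 16 h cell 1 alone made the groups overlap.

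The cells that led this order also stood apart in a marker of maturing xylem. *VND7*, a master regulator of vessel differentiation, was at 232 FPM in 0 h cell 2 and at 89.0 FPM in 16 h cell 1, and at 0 to 0.945 FPM in the other stele cells. The other 3 maturing xylem markers, *VND6*, *XCP1* and *XCP2*, were at 0 in all libraries. *WOL*, a stele marker, was at 99.7 FPM in 16 h cell 1 and at 0.257 to 2.44 FPM in the other 16 h cells. At 0 h it was at 37.8 to 125 FPM, with 44.8 FPM in 0 h cell 2. *REV* was also within its 0 h range in 16 h cell 1, at 173 FPM. *SHR*, *ATHB8* and *PHB* lay below theirs in that cell, at 0, 7.16 and 1.72 FPM. What part the stage or type of the sampled cell has in the values of *TMO5* and *T5L1* was not tested.

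*LHW* is the broadly expressed partner of the heterodimer, and it was the only gene of the 10 above 0 in all 7 stele cells, in all 4 aliquots and in most QC cells, with *T5L1*, *TMO6*, *SAC51* and *SACL3* sharing only the first of these. In stele cells it was at 26.7, 11.7 and 40.4 FPM at 0 h and at 4.06, 21.4, 2.27 and 10.7 FPM at 16 h. The groups overlapped through 16 h cell 2, and the median difference was -1.85 on the log2(FPM + 1) scale. Leaving out 16 h cell 2 or 0 h cell 2 ended that overlap, with every remaining 16 h cell below every 0 h cell.

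In QC cells *LHW* was above 0 in 11 of 20, with a lowest value of 0, a median of 0.05 FPM and a highest value of 672 FPM. Whether it was listed went with the sets of libraries, while its level ranged widely within them. It was above 0 in 6 of 7 cells of the set headed by QC cell 1, in which QC cells 9 and 11 stood at 380 and 672 FPM (5604 and 11479 reads), QC cell 13 at 6.58 FPM, QC cells 1, 8 and 12 at 0.146, 0.183 and 0.035 FPM and QC cell 10 at 0. It was above 0 in all 3 cells of the set headed by QC cell 14, at 0.773, 111 and 45.1 FPM. It was at 0 in all 6 cells of the set headed by QC cell 2, all of them zeros that follow from the head of the set.

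Among QC cells in no set, *LHW* was at 0.374 FPM in QC cell 16 and at 0.064 FPM in QC cell 18, and at 0 in QC cells 15 and 17, their shallower near copies. The aliquots, which share the RNA of 4 QC cells, gave 0.186, 0.048, 17.8 and 19.5 FPM, an SD of 2.39 on the log2(FPM + 1) scale (n = 4). The aliquots of 1 lysate thus lay in a lower and a higher pair, each value inside the range of the QC cells. The 0 h cells and the QC cells overlapped for *LHW*, since QC cells 9, 11, 19 and 20 were above all 0 h cells.

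The table lists AT2G27228 with the same values as *LHW* in all 22 libraries where either is above 0, so that the reads of these loci cannot be told apart. Such rows were uncommon, since among 14101 loci above 0 in at least 5 libraries 94 (0.667%) shared an identical row with another locus.

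**Figure D2:**
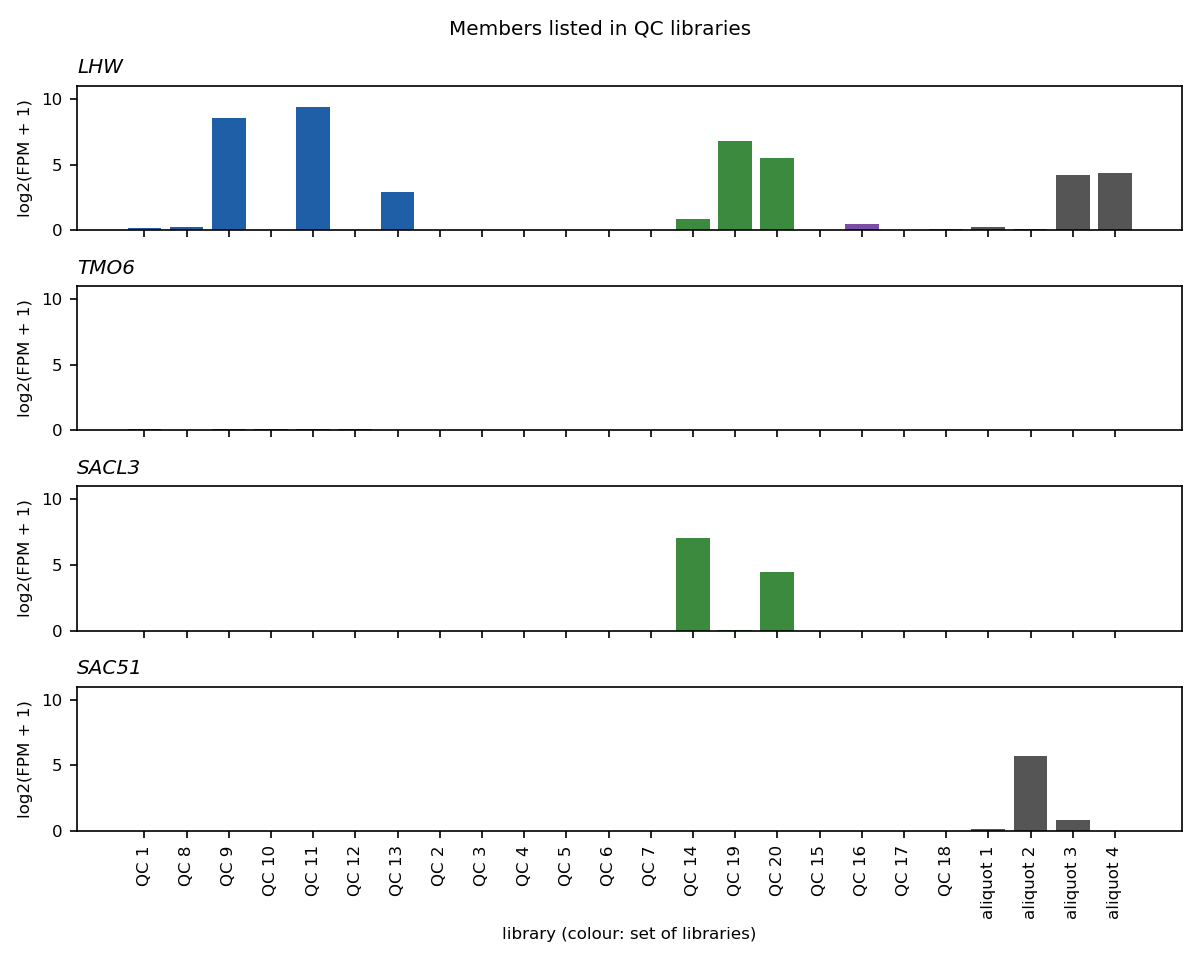
Level of *LHW*, *TMO6*, *SACL3* and *SAC51* in the 20 QC cells and 4 aliquots, as bars of log2(FPM + 1) from 0, colored by set of libraries. *LHW* is high in QC cells 9, 11, 19 and 20, *SACL3* in QC cells 14 and 20, *SAC51* in aliquot 2, and *TMO6* is nowhere above 0.097 FPM.

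*TMO6* was the only Dof gene of the 4 listed in more than 1 library, and the only gene of the 10 with a higher median of log2(FPM + 1) at 16 h than at 0 h. PEAR family Dof factors move between cells and promote radial growth. *TMO6* stood at 22.9, 3.45 and 7.43 FPM at 0 h and at 64.5, 21.5, 484 and 953 FPM at 16 h. The groups met only where 16 h cell 2 lay just below 0 h cell 1, and the median difference was 4.40 on the log2(FPM + 1) scale. Leaving out either of these cells placed every 16 h cell above every 0 h cell.

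In QC cells *TMO6* was above 0 in 5 of 20, QC cells 1, 9, 10, 11 and 12, at no more than 0.097 FPM, and it was at 0 in the aliquots. All 5 are in the set headed by QC cell 1. All 7 stele cells were above all 20 QC cells.

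Phloem markers were read beside *TMO6*. *SUC2*, the sucrose transporter of phloem companion cells, was at 332 FPM in 16 h cell 4, the cell with the highest *TMO6*, and at 0 to 4.82 FPM in the other stele cells. In 16 h cell 3, with *TMO6* at 484 FPM, *SUC2* was at 0.696 FPM. *OPS*, which acts in protophloem differentiation, was at 22.3 to 108 FPM at 0 h and at 53.1 to 206 FPM at 16 h, and *CVP2* was at 0 at 0 h and at 0.251 to 6.56 FPM at 16 h. *APL*, a phloem identity gene, was at 0 in all libraries. The sum of the 4 phloem markers was 25.7 to 110 FPM at 0 h and 59.0 to 478 FPM at 16 h, and its part in the values of *TMO6* was not tested.

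The other Dof genes were listed at 0 in nearly every library. *PEAR1* and *HCA2* were listed at 0 in all 31 libraries. *PEAR2* was above 0 only in 16 h cell 1, at 3.31 FPM (79 reads). The authors removed genes with low coverage before deposit, and zeros are shared within sets, so that these zeros set no upper limit on the level of the genes.

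*ACL5* had its highest values in 0 h cells. It was at 49.1, 0.107 and 16.9 FPM at 0 h and at 0.167, 0.085, 0 and 0 FPM at 16 h, and at 0 in every QC cell and aliquot. The value in 0 h cell 2 rested on 3 reads and those at 16 h on 4 and 3 reads. *ACL5* was therefore high in 2 of 3 cells at 0 h and in no cell at 16 h, and the groups overlapped through 0 h cell 2. The median difference was -4.10 on the log2(FPM + 1) scale. The cell order differed from that of *TMO5*, since the 0 h cell with the most *TMO5*, *T5L1* and *VND7* had the least *ACL5*.

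*SAC51*, whose name comes from suppression of the dwarf *acl5* phenotype, kept its median between the times. It was at 1.37, 58.2 and 23.4 FPM at 0 h and at 19.8, 30.8, 27.0 and 0.171 FPM at 16 h, with a median of 23.4 FPM in both groups. The spread within each group was far larger than the difference of medians, -0.02 on the log2(FPM + 1) scale, whose sign changed when any of 4 cells was left out. *SAC51* was listed at 0 in all 20 QC cells, yet 3 of 4 aliquots had it, at 0.099, 49.9, 0.798 and 0 FPM, an SD of 2.70 on the log2(FPM + 1) scale. The table gives AT5G64341, AT5G64342 and AT5G64343 the same values as *SAC51* in all libraries.

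*SACL3*, of the same bHLH group as *SAC51*, followed *T5L1* more closely than it followed *SAC51*. It was at 85.7, 118 and 15.1 FPM at 0 h and at 46.0, 0.085, 1.80 and 0.556 FPM at 16 h. As for *TMO5* and *T5L1*, 16 h cell 1 lay within the range at 0 h and the other 16 h cells below it, and the median difference was -5.38 on the log2(FPM + 1) scale. Over the 7 stele cells, Pearson's r of log2(FPM + 1) between *SACL3* and *T5L1* was 0.96, and that between *SACL3* and *SAC51* was 0.15. *TMO6* and *T5L1* had an r of -0.68 over the same cells. These coefficients are descriptions of 7 cells that share 2 times of collection and 2 sets of libraries.

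In QC cells *SACL3* was above 0 only in the set headed by QC cell 14, at 135 FPM in QC cell 14, 0.010 FPM (1 read) in QC cell 19 and 21.1 FPM in QC cell 20. It was at 0 in the aliquots. QC cell 14 lay above all 3 stele cells at 0 h, and without its set the 0 h cells lay above all QC cells. The reads listed for AT1G29951 and AT1G29952 were 0.919 to 1 times those of *SACL3* in the 10 libraries with any, so that these loci are not separate either.

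**Figure D3:**
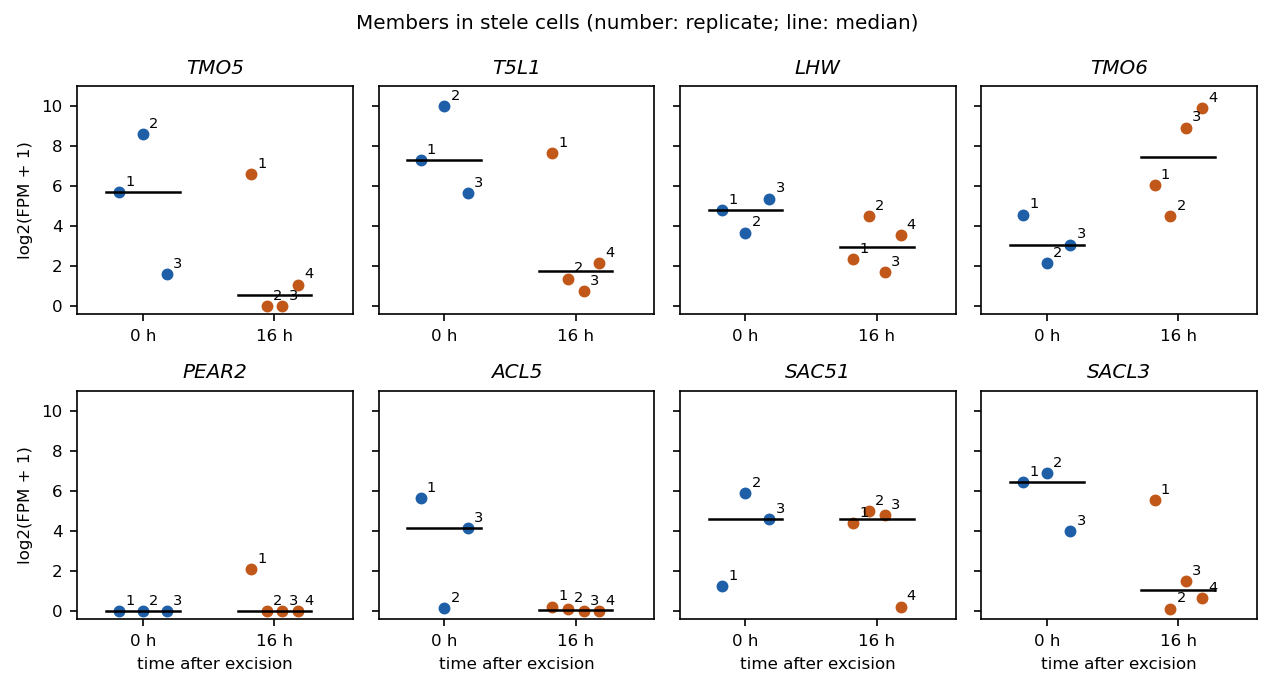
Level of 8 vascular regulators in single stele cells at 0 h (blue, n = 3) and 16 h (orange, n = 4), as log2(FPM + 1), with the replicate number beside each point and a line at the median. For *TMO5*, *T5L1* and *SACL3*, 16 h cell 1 sits among the 0 h cells and the other 16 h cells sit below them, while *TMO6* is higher in most 16 h cells.

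Between 0 h stele cells and QC cells, 5 of the 10 genes did not overlap, with *TMO5*, *T5L1*, *TMO6*, *ACL5* and *SAC51* higher in every 0 h cell than in any QC cell, and none lower. Of all 16270 loci above 0 in any of these libraries, which include 7 of the 10 genes, 14.5% were higher without overlap and 0.166% lower. Without QC cells 14, 19 and 20 the number was 6, with *SACL3* added, against 25.1% of loci, and none was lower, against 0.289%. For *ACL5* the separation rested on 3 reads (0.107 FPM) in 0 h cell 2. The aliquots were not among the QC cells compared, and aliquot 2, at 49.9 FPM of *SAC51*, lay above 0 h cells 1 and 3. The median difference over the 10 genes was 4.38 on the log2(FPM + 1) scale. Over the 16270 loci it was 1.90, and 69.2% of them had a higher median at 0 h. The 10 include *PEAR1*, *PEAR2* and *HCA2*, at 0 in all these libraries, while the loci leave out such rows. The shift of all loci goes with the longer list of loci above 0 in stele cells, and the cell type cannot be told apart from the reporter line and the age of the plants.

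Between 16 h stele cells and QC cells, 3 of the 10 genes did not overlap, *T5L1*, *TMO6* and *SAC51*, all higher at 16 h. Of the loci above 0 in any of these libraries, which include 8 of the 10 genes, 10.5% were higher without overlap and 0.0614% lower. Aliquot 2, at 49.9 FPM of *SAC51*, lay above all 16 h cells. The aliquots overlapped with the QC cells for all 10 genes, of which 4 were above 0 in any of these libraries. Of such loci, 3.28% were higher without overlap and 0.0666% lower.

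Between 16 h and 0 h, all 10 genes overlapped. Of 15156 loci above 0 in any of these cells, which include 8 of the 10 genes, 10.6% were higher and 12.6% lower without overlap. Of the 10 genes, 6 had a lower median at 16 h and 1 a higher median. Of the 15156 loci, 47.2% had a lower median at 16 h and 48.9% a higher median. The 6 genes include *SAC51*, whose difference of -0.02 changed sign when some single cells were left out. The median difference over the 10 genes was -0.93 against 0 over all loci. Which cells entered decided the count of genes without overlap. Without 16 h cell 1, *TMO5*, *T5L1*, *ACL5* and *SACL3* were lower in all 3 remaining cells than in any 0 h cell. These were 4 of the 7 genes above 0 in any of these cells, where 15.0% of such loci were lower. Without 16 h cell 2, *TMO6* was higher (12.0% of loci) and *LHW* lower (15.1%). Without 0 h cell 1, *TMO6* was higher (13.4%), without 0 h cell 2, *LHW* and *ACL5* were lower (17.1%), and without 0 h cell 3, *SACL3* was lower (17.9%). Leaving out 16 h cell 3 or 4 gave none.

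A list of 10 genes of auxin response, cytokinin perception and response, and vascular patterning was looked at next. Of these, 4 were lower at 16 h than at 0 h without overlap and 1 was higher, set beside the same 12.6% and 10.6% of loci. *ATHB8*, an HD-ZIP III gene of procambium, was at 325, 515 and 204 FPM at 0 h and at 7.16, 0, 0.147 and 1.15 FPM at 16 h. Its relative *ATHB-15* was at 373, 29.1 and 233 FPM and then at 2.26, 1.25, 9.01 and 1.28 FPM. *PHB*, also HD-ZIP III, was at 146, 35.4 and 129 FPM and then at 1.72, 13.7, 1.21 and 14.2 FPM. In 16 h cell 1, the cell with *TMO5*, *T5L1* and *SACL3* within the 0 h range, these 3 genes lay below that range. The other HD-ZIP III genes, *REV* and *PHV*, lay within it in that cell, at 173 and 13.7 FPM, and overlapped between the times.

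*SHR*, which patterns the ground tissue and xylem from the stele, was at 49.7, 149 and 25.6 FPM at 0 h and at 0 in all 4 cells at 16 h. *CRF2*, a cytokinin response factor, was the gene higher at 16 h, with 0 in all 0 h cells and 6.66, 7.42, 0.403 and 11.9 FPM at 16 h. *REV* was at 208, 239 and 108 FPM and then at 173, 20.4, 210 and 0.983 FPM. *MP*, the auxin response factor that activates *TMO5*, was at 3.09, 6.37 and 93.1 FPM at 0 h and at 254, 60.4, 306 and 0.171 FPM at 16 h. *MP* was therefore above the 0 h median in 3 of 4 cells at 16 h, and in 16 h cells 2 and 3 it stood at 60.4 and 306 FPM where *TMO5* was listed at 0.

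Close relatives of the 10 genes gave 9 more loci, of which 3 were higher at 16 h without overlap and none lower, beside 10.6% and 12.6% of all loci. All 3 were at 0 in the 0 h cells, zeros that share 1 head of a set. *LHL2*, a relative of *LHW*, was at 2.81, 6.00, 47.8 and 41.4 FPM at 16 h. *LHL3*, of the same family, was at 2.14, 2.81, 0.366 and 3.93 FPM. *OBP2*, a Dof gene, was at 2.93, 153, 156 and 10.3 FPM. Like *TMO6* it was high in 16 h cell 3. It was as high in 16 h cell 2, where *TMO6* was lowest among 16 h cells, and lower in 16 h cell 4, where *TMO6* was highest.

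*LHL1* overlapped, with a median of 14.9 FPM at 0 h and values of 14.7, 11.1, 78.1 and 0.043 FPM at 16 h. AT2G41130, a bHLH gene, was at 5.33, 133 and 46.5 FPM at 0 h and at 35.7, 0.085, 9.67 and 0.470 FPM at 16 h. AT3G56770, also a bHLH gene, was at 1.37, 2.99 and 2.90 FPM at 0 h and at 140, 0.057, 23.4 and 0 FPM at 16 h. AT5G50010, another bHLH gene, was at 52.2, 0 and 5.46 FPM at 0 h and at 0 at 16 h, and shared its row with AT5G50011 and AT5G50012. AT5G09460 and *DOF6* were at 0 in all libraries.

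Of 6 genes known to act after *TMO5*, *LHW* or the PEAR factors, none separated 16 h from 0 h, beside 10.6% of all loci higher and 12.6% lower. *AHP6*, *BGLU44* and *SMXL3* were at 0 in all libraries and so could not separate the times. *LOG3*, a cytokinin-activating enzyme, was at 0.258, 4.59 and 0.836 FPM at 0 h and at 20.4, 0, 0 and 0.086 FPM at 16 h. Its highest value was in 16 h cell 1, where *TMO5* was also highest among 16 h cells, and its highest value at 0 h was in 0 h cell 2, where *TMO5* was highest. *LOG4*, the other such enzyme, was at 0 at 0 h and at 3.10, 0, 0 and 0.086 FPM at 16 h. AT2G28510, a Dof gene, was at 2.66, 12.5 and 3.00 FPM at 0 h and at 5.07, 3.33, 203 and 17.9 FPM at 16 h.

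Enzymes of polyamine synthesis around *ACL5* were read in the same way. Of 10 polyamine genes, 3 were higher at 16 h than at 0 h without overlap and 1 was lower, again beside 10.6% and 12.6% of all loci. *SAMDC*, which makes the aminopropyl donor that *ACL5* uses, was at 15.0, 348 and 23.6 FPM at 0 h and at 718, 1904, 3110 and 1260 FPM at 16 h. AT5G15950, of the same enzyme family, was at 0.258, 9.10 and 0.640 FPM and then at 20.8, 51.7, 103 and 39.4 FPM. *SPMS*, the spermine synthase, was at 26.2, 6.44 and 54.0 FPM at 0 h and at 168, 167, 414 and 814 FPM at 16 h. *ACL5* itself overlapped between the times, as given above, with a lower median at 16 h.

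*SPDS1*, a spermidine synthase, was the gene lower at 16 h, at 0.344, 0.605 and 0.738 FPM and then at 0 in all 4 cells. The arginine decarboxylase genes overlapped, with *ADC1* at 75.8, 222 and 130 FPM and then at 127, 94.3, 82.0 and 11.1 FPM, and *ADC2* at 214, 15.4 and 433 FPM and then at 402, 424, 514 and 260 FPM. *SPDS2* and AT3G25570 were at 0 in all stele cells, and *BUD2* and *PAO5* in all libraries. Genes of the translation machinery known from suppressors of *acl5* gave 1 of 3 higher at 16 h without overlap, where 10.6% of loci were, namely *RPL10A*, at 287, 344 and 349 FPM and then at 1537, 1293, 564 and 565 FPM. The ribosomal protein gene AT3G09630 and *RACK1A*, a ribosome-bound scaffold, overlapped, at 179 to 459 FPM and 287 to 511 FPM at 0 h and at 336 to 720 FPM and 270 to 1306 FPM at 16 h.

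**Figure D4:**
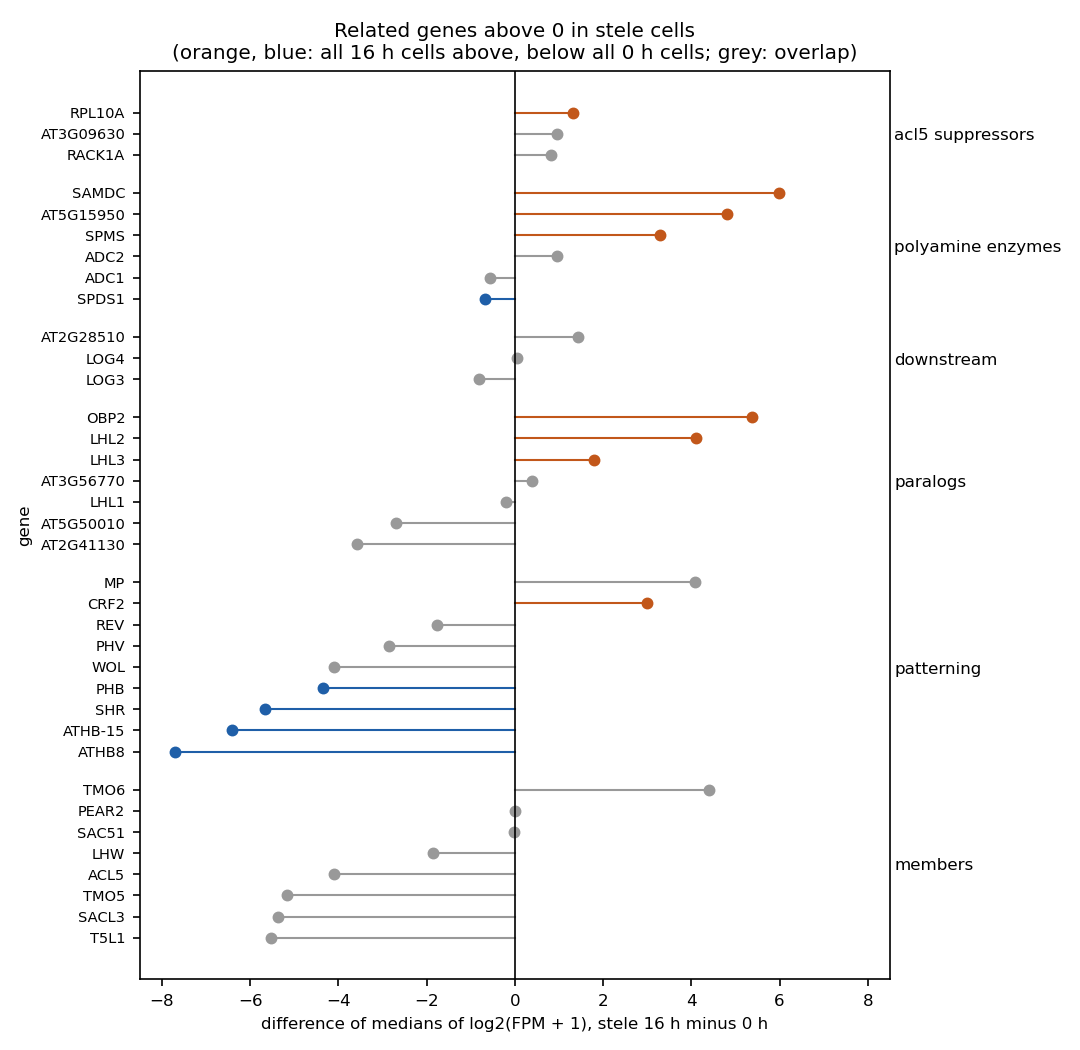
Difference of medians of log2(FPM + 1), stele 16 h minus 0 h, for the vascular regulators and related genes above 0 in any stele cell, grouped by list, in orange or blue where all 16 h cells were above or below all 0 h cells and in grey where they overlapped. *ATHB8*, *ATHB-15*, *SHR* and *PHB* lie on the lower side without overlap, *SAMDC* and *OBP2* on the higher side, and all vascular regulators are grey.

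Loci with the most similar pattern were taken by Pearson's r of log2(FPM + 1) over all 31 libraries, which share sets, depth and the contrast of stele with QC. For *T5L1* they were AT5G57340 (r = 0.988), AT5G53020 (0.986) and AT3G14410 (0.983), and each was above 0 in 7 to 8 libraries. For *TMO6* they were AT3G25597 (0.987), AT3G61820 (0.975) and *RALFL17* (0.966), all above 0 in 7 libraries. For *LHW*, next to AT2G27228 with its identical row, they were AT1G67530 (0.833) and *EIN2* (0.823), a central protein of ethylene signaling. For *SACL3*, next to the loci that share its reads, it was *ATAUX2-11* (0.930), a gene of the Aux/IAA family of auxin response repressors. For *SAC51* all 3 were the loci with identical rows. With Spearman's rho, none of the 3 loci of *T5L1* and none of those of *TMO6* remained among the nearest 3. *ATAUX2-11* also left the nearest 3 of *SACL3*, and AT1G67530 left those of *LHW*. Over only the 10 libraries whose loci lie within no other, 1 of the 3 loci of *LHW* remained. This was AT2G27228, whose identical row keeps it there in any choice of libraries, so neither AT1G67530 nor *EIN2* remained. *TMO5*, *ACL5* and *PEAR2* were above 0 in fewer than 6 libraries and were not ranked.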

How the data were processed

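Amplified cDNA was sequenced as 50 bp single-end reads, which the authors aligned to TAIR10 with Bowtie2. They summed the reads on exons, split reads that matched several places into parts, dropped genes of low coverage, scaled by depth, added 1 and deposited log2 values. The scaling was undone from the spacing of low values within a library, with 100% of values under 1000 reads whole within 0.05 reads, and FPM is the share of the total over 32678 loci, without the 2 reporters. A step of 1 read may stand for less, since partial reads were counted. Differences are of group medians of log2(FPM + 1), with a pseudocount of 1 FPM. No overlap means that every cell of a group is above every cell of the other, out of loci above 0 in any of them. Totals of 11637897 reads or more made 1 read less than 0.1 FPM.

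Groups came from the labels. The study names a single plate and no plant, so cells are not replicates and no difference between groups was tested. Dixon's ratio served only to choose libraries to list. The 10 genes, the lists and the markers were chosen with earlier results of these data known. The genes named were all 10, list genes without overlap between 0 h and 16 h or among the 3 highest medians in QC or 0 h cells, and the 3 loci of highest r for each of the 10 above 0 in at least 6 libraries. A further related gene is not reported here. Other related genes, and markers, were named after their values were seen. All 31 value columns were used. Names came from the TAIR10.1 annotation of RefSeq (31912 loci matched), the published names of the 10 genes and, for some related genes, the lists used here. For example, *LHL1*, *LHL2*, *SPMS*, *RACK1A*, *RPL10A* and *TMO7* are EMB1444, CPUORF7, SPDS3, ATARCA, SAC52 and BS1 in that annotation. No coordinates or sequences were used, since that assembly differs from that of the authors. The alternatives changed the minimum level that counts as listed, the depth (thinned to the lowest total), the scaling (median ratio), the pseudocount, the coefficient (Spearman's rho), or the libraries (heads of sets only, without QC cells over 50000000 reads, or without each stele cell or aliquot in turn). Those without QC cells 14, 19 and 20, and with near copies counted once, were chosen after seeing the data. The scripts were tested on simulated data. Tables were handled with pandas 2.3.3 and numpy 2.4.6 in Python 3.11.15, statistics came from scipy 1.17.1, and figures were drawn with matplotlib 3.10.9.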

Additional observations from a re-analysis of the deposited data

Results flagged for a closer look

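In groups of 4 libraries, the gap of the highest or lowest library to its neighbor was divided by the range of the group, on the log2(FPM + 1) scale. This ratio, Dixon's, served only to choose which libraries to list here, and 4 of 10 such groups of the vascular regulators passed its critical value. In independent normal replicates about 1 in 20 groups would pass, a rate that need not hold for cells with zeros shared within sets. *TMO5* in 16 h cell 1, at 95.0 FPM against 0 to 1.11 FPM in the other 16 h cells, gave a ratio of 0.836. *PEAR2* in the same cell, at 3.31 FPM against 0, gave a ratio of 1, as any single value above 0 among zeros does. *SAC51* in 16 h cell 4, at 0.171 FPM against 19.8 to 30.8 FPM, gave 0.871, and this was the cell with the highest *SUC2* and *TMO6*. *SAC51* in aliquot 2, at 49.9 FPM against 0 to 0.798 FPM in the other aliquots of the same lysate, gave 0.851.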

How the results depend on the processing

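The median number of the 10 genes listed per QC cell was 0 rather than 1 at a minimum of 1 FPM and also at 10 FPM, and 0.5 without QC cells 14, 16, 19 and 20, those over 50000000 reads. Per 0 h cell it was 5 rather than 7 at 10 FPM, and per 16 h cell 4 and 2.5 rather than 6 at 1 and 10 FPM. The number without overlap between 16 h and 0 h was 0, became 1 (*TMO6*, higher) when libraries were thinned to the lowest total, and ran from 0 to 4 when each cell was left out. Of 41 alternative values of these counts, 30 stayed close and 11 moved. Of 126 alternative values of differences of medians, 122 kept their sign, and the 4 others were all *SAC51* between 16 h and 0 h, at 1.66, 1.02, 0.20 and 0.20 without 0 h cell 2, 0 h cell 3, 16 h cell 1 and 16 h cell 4. The SD of *SAC51* over aliquots was 0.455 without aliquot 2. Another pseudocount resized differences from QC cells, where most values are 0, and for *T5L1* that difference was 7.29, 10.6 and 4.05 with 1, 0.1 and 10 FPM. Over loci above 0 in any library, the median difference of 0 h from QC cells was 1.47 scaled by total reads and 1.19 scaled by the median ratio, and no count of the 10 genes without overlap changed with that scaling. No paired analysis was possible because no difference was tested and shared replicate numbers mark no pairs. Over the aliquots of 1 lysate, the SD on the log2(FPM + 1) scale was 2.39 for *LHW* and 2.70 for *SAC51*. With this spread, 3 and 4 stele cells and zeros shared within sets, these data limit what a difference between single cells can show.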

Other observations

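Several genes that act with the vascular regulators were listed in QC cells, where *TMO5* and *T5L1* were at 0. *MP* was above 0 in 19 of 20 QC cells, with a median of 36.6 FPM and a highest value of 1098 FPM, and in all 4 aliquots, with a median of 307 FPM. *TMO7*, a small bHLH gene activated by *MP*, was also above 0 in 19 of 20, with a median of 1.81 FPM, although it was at 0 in all 7 stele cells. *LOG3* was above 0 in 3 of 20 QC cells and *LOG4* in 7 of 20, and both were in all 4 aliquots, with medians of 98.4 and 129 FPM. *LHL2* was above 0 in 13 of 20 QC cells, with a median of 0.077 FPM and a highest value of 456 FPM, and it was at 0 in the aliquots.

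Of the polyamine genes, 5 were above 0 in every QC cell, while *ACL5* was listed in none. No more than 14.2% of all loci can be above 0 in every QC cell, the share in QC cell 6. Medians were 825 FPM for *SAMDC*, 180 FPM for *ADC2* and 29.5 FPM for *SPMS*, with lowest values of 0.766, 0.852 and 0.061 FPM. AT5G15950 and *ADC1* had medians of 21.9 and 22.5 FPM and lowest values of 0.010 and 0.142 FPM.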
